A study of Mus musculus with 19 samples.

Results

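CD8 and CD4 T cells sorted from the same liver metastases of control mice differed in 596 of 9570 genes tested. Of 16 tested killing genes 10 were higher in CD8 cells, as were 5 of 6 chemokines, while 12 of 20 regulatory T cell genes and 10 of 18 naive and memory genes were lower. The comparison holds 6 of the 19 libraries of the series, 3 of CD8 cells and 3 of CD4 cells. They were chosen as every library of genotype Tet2fl/fl and were paired by the animal number in the library name, since each of the 3 animals gave both cell types.

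Mice of genotype Tet2fl/fl carry a Tet2 gene flanked by recombination sites, and the labels name no Cre in them and call them controls. Colorectal cancer cells of the line Venus-AKTPM/LOH were injected into the spleen, from which they seed the liver, and tumours were taken on day 30. Leukocytes were freed with collagenase A and DNase I, and antibodies to CD45, CD3ε, CD8α and CD4 defined the sorted T cells. Vav1CreTet2KO mice, in which the Vav1 promoter drives Cre across blood cells, and Cd4CreTet2KO mice, in which the Cd4 promoter drives it in T cells, entered only the test of whether the CD8 to CD4 difference was the same in them. All the mice carried the same tumour cells. Ages were not given in the sources used here.

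CD8 T cells recognise peptides on MHC class I and kill the cell that shows them, by releasing perforin and granzymes and through Fas ligand. CD4 T cells recognise peptides on MHC class II and comprise helper cells, which act through cytokines and CD40 ligand, and regulatory T cells, which carry the transcription factor Foxp3 and restrain other T cells. In tumours, CD8 T cells under lasting antigen exposure can enter an exhausted state, marked by inhibitory receptors such as PD-1 and by the transcription factor Tox, while Tcf7 marks cells that keep the capacity to renew.

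Libraries of total RNA held 8188645 to 12518305 reads on genes in CD8 cells, recovered from the RPKM values, and 9096532 to 16451285 in CD4 cells. Values are RPKM, read numbers divided by gene length and by the reads of the library, which the authors normalized in a separate table for each cell type. A fold change is the mean CD8 minus CD4 difference of log2(RPKM + 1) over the 3 animals, and a gene was called at a limma adjusted p under 0.05 (Benjamini-Hochberg over all genes tested). Genes were tested if they reached 1 RPKM in at least 3 of the 6 libraries. The p-values rest on the spread of the CD8 minus CD4 difference among the 3 animals. Limma draws each gene's variance toward that of genes of similar level, so a single gene's SE and p-value are partly borrowed. CD4 libraries are named in the column headers with the word trimmed and CD8 libraries are not, so a difference in read processing and the difference between cell types cannot be told apart. Across the genes tested, correlations of log2 values were 0.833 to 0.881 between cell types, 0.919 to 0.942 among CD8 libraries and 0.891 to 0.903 among CD4 libraries.

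Sequences upstream of 5 of the genes below are printed first, because the runt family (Runx3 among them) and T-box factors (Tbx21 and Eomes) are known regulators of the killing programme in CD8 T cells. The genes were picked among called genes because these 250 bases hold the runt core TGTGGT, or its reverse complement ACCACA, in capitals. The first 4 were higher in CD8 cells and Izumo1r was lower. Each sequence runs 5′ to 3′ along the gene's strand and ends at the base before the start site, from RefSeq on GRCm38.p6.
Prf1, chr10:61297586-61297835, plus strand: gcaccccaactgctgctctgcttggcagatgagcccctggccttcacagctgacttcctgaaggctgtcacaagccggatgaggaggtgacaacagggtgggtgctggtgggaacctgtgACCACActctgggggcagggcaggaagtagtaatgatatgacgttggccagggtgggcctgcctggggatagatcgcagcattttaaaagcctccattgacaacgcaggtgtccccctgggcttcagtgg
Gzma, chr13:113100982-113101231, minus strand: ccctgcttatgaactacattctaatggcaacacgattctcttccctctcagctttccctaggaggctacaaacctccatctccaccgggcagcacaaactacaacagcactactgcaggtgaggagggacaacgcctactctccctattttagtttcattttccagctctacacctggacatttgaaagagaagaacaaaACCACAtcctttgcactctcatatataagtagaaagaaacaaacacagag
Gzmb, chr14:56262335-56262584, minus strand: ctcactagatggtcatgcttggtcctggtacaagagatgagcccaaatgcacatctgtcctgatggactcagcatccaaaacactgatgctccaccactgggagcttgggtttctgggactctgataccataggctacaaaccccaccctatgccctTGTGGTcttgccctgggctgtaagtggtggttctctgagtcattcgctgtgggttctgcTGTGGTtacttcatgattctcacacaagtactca
Klrc1, chr6:129678974-129679223, minus strand: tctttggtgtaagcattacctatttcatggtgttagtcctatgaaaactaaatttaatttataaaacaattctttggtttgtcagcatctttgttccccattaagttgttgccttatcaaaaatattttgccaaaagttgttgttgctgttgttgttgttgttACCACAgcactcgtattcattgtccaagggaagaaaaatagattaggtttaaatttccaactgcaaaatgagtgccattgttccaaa
Izumo1r, chr9:14903768-14904017, minus strand: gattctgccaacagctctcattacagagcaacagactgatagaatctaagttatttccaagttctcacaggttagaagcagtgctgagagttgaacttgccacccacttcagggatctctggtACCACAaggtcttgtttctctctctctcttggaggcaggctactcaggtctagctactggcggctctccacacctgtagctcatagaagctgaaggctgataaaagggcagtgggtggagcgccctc

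Of the 315 genes higher in CD8 cells, 238 had an entry in the RefSeq table of starts, and 57 of them (23.9%) held the runt core on either strand in these 250 bases. Of the 281 genes lower in CD8 cells, 41 of 210 with an entry (19.5%) held it, against 13.1% of tested genes and 15.9% of all 27025 entries. The T-box letters TCACAC, or GTGTGA, stood in 14.3% of the higher genes and 13.8% of the lower genes, against 10.9% of tested genes and 13.9% of all entries. A match is a run of letters and not a measured binding site. Both runs of letters had a larger share upstream of called genes of either direction than of tested genes, with no test of that difference.

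Genes of the sorted proteins stood where the sort puts them. Cd8a, the α chain of the CD8 coreceptor (ENSMUSG00000053977, chromosome 6, 71350411 to 71356157 as the tables give it, in a build not given in the sources used here), was at 218, 179 and 230 RPKM in CD8 cells, against 0.0325, 0.792 and 0.397 RPKM in CD4 cells. Cd4 (ENSMUSG00000023274, chromosome 6, 124841655 to 124865184) had 0 reads in every CD8 library, against 99.8, 106 and 113 RPKM in CD4 cells. With a floor of 3 reads per CD8 library, Cd4 was at least 2375-fold lower in CD8 cells. Each library thus held the coreceptor it was sorted on and little of the other. Cd8b1, the β chain, averaged 180 ± 21.6 RPKM in CD8 cells and 4.24 ± 3.02 RPKM in CD4 cells (SD, n = 3 each). Ptprc, which encodes CD45, did not pass the test (log2 fold change 0.17, limma adjusted p = 0.524), and Cd3e, part of the CD3 complex, was somewhat higher in CD8 cells (245 ± 49.2 RPKM, against 148 ± 22.7 RPKM in CD4 cells, limma adjusted p = 0.0164). That call of Cd3e was lost without animal 3 (limma adjusted p = 0.152).

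Among transcription factors of the lineage choice, Zbtb7b, which encodes the CD4 lineage factor ThPOK, was lower in CD8 cells at 4.37, 2.82 and 4.93 RPKM, against 8.09, 8.08 and 14.9 RPKM in CD4 cells (log2 fold change -1.14, SE 0.26, limma adjusted p = 0.0343, and 0.183 without animal 3). Runx3, its counterpart in CD8 cells, was at 39.0, 36.1 and 35.8 RPKM in CD8 cells, against 26.2, 32.1 and 26.7 RPKM in CD4 cells, and did not pass (limma adjusted p = 0.254). Every CD8 library lay above every CD4 library for Runx3, with a log2 fold change of 0.38 (SE 0.17). Values of the cell types did not overlap in 23.4% of all genes tested. Crtam, a surface adhesion molecule of activated cytotoxic T cells, was at 15.7 ± 0.290 RPKM in CD8 cells and 0.122 ± 0.0779 RPKM in CD4 cells (limma adjusted p = 1.02e-04). Cd40lg, the helper ligand that licenses B cells and dendritic cells, was at 0.0945, 1.35 and 0 RPKM in CD8 cells, against 14.3, 20.3 and 25.3 RPKM in CD4 cells (limma adjusted p = 2.96e-04, and 0.214 by edgeR on recovered reads). Tet2 itself, intact in these mice, was at 7.42 ± 0.773 RPKM in CD8 cells and 5.04 ± 1.73 RPKM in CD4 cells and did not pass (limma adjusted p = 0.315).

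Of the genes tested, 315 were higher in CD8 cells and 281 were lower, 6.23% in either direction, 3.29% higher and 2.94% lower. Each of the 596 had the same sign in all 3 animals. In 558 of them the values of the cell types did not overlap, against 23.4% of all genes tested. Both traits are favoured by the call itself, which was made on the same values, so they add no separate support. The median log2 fold change of all genes tested was 0.05. The filter admitted 102 genes that reached 1 RPKM in every CD8 library and in no CD4 library, of which 52 were called, and 105 genes with the reverse pattern, of which 32 were called. The count fell to 488, 385 and 200 without animals 1, 2 and 3. On recovered reads edgeR called 933 and DESeq2 called 1408.

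**Figure D1:**
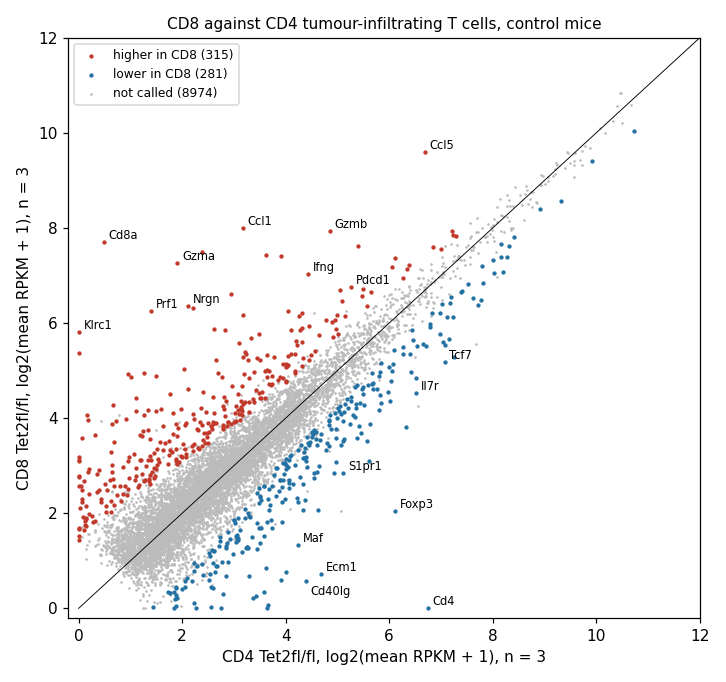
Mean level of each tested gene in CD8 cells (vertical axis) against CD4 cells (horizontal axis) of 3 Tet2fl/fl animals, both in log2(mean RPKM + 1). Red points are the 315 genes called higher in CD8 cells and blue points the 281 called lower, with Cd8a far above the diagonal and Cd4 far below it.

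Killing genes were higher in CD8 cells where they passed. Of 21 genes of cytotoxic granules and killing, 16 were tested and 10 were higher in CD8 cells, with a median log2 fold change of 1.49 over the 16. Prf1 (ENSMUSG00000037202, chromosome 10, 61133612 to 61140459 in the tables), which encodes the pore-forming protein perforin, was at 117, 44.3 and 65.1 RPKM in CD8 cells, against 1.89, 0.206 and 2.87 RPKM in CD4 cells. Its log2 fold change was 4.89 (SE 0.28, limma adjusted p = 2.29e-05). Gzma, a granzyme of the tryptase kind, was at 75.0, 105 and 278 RPKM in CD8 cells, against 0.355, 0.880 and 7.03 RPKM in CD4 cells. Animal 3 had the highest Gzma in both cell types (log2 fold change 5.58, SE 0.21, limma adjusted p = 2.33e-06). The Gzma values of the cell types did not overlap, as in 23.4% of all genes tested. Gzmb, the granzyme that activates caspases in the target, was at 151, 176 and 406 RPKM in CD8 cells, against 36.2, 13.5 and 34.0 RPKM in CD4 cells (log2 fold change 3.06, SE 0.28, limma adjusted p = 3.49e-04). CD4 cells thus held Gzmb in every library at 13.5 RPKM or more, while their Prf1 stood at 2.87 RPKM or less.

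Nkg7, a granule membrane protein needed for release, averaged 170 ± 37.1 RPKM in CD8 cells and 14.0 ± 3.13 RPKM in CD4 cells (n = 3 each, limma adjusted p = 3.67e-05). The death ligand Fasl was at 28.05 ± 3.89 RPKM in CD8 cells and 5.82 ± 2.54 RPKM in CD4 cells, and Gzmk, a granzyme of early effector and memory cells, at 7.67 ± 3.14 and 1.27 ± 0.774 RPKM in CD8 and CD4 cells. Both passed the test (limma adjusted p = 0.00216 and 0.00528). Genes of the release machinery that many cells share did not pass. Srgn, the proteoglycan core of the granule, was at 134 RPKM in CD8 cells and 131 RPKM in CD4 cells, and Rab27a, which docks granules, differed by 0.26 on the log2 scale (limma adjusted p = 0.518). Gzmd, Gzme, Gzmf, Gzmg and Gzmm were too low to be tested. edgeR on recovered reads did not call Prf1 (adjusted p = 0.200) or Gzmb (adjusted p = 0.122), as it did not call Cd8a (adjusted p = 0.115).

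Receptors first described on natural killer cells were higher in CD8 cells with 1 exception among those that passed. Of 23 natural killer receptors and adaptors in the tables, 17 were tested, 11 were higher in CD8 cells and 1 was lower, with a median log2 fold change of 2.22. Klrc1, the inhibitory receptor NKG2A, was at 68.7, 35.7 and 61.5 RPKM in CD8 cells and had 0, 1 and 0 reads in CD4 cells (limma adjusted p = 7.36e-06). Klrd1, the CD94 chain that pairs with it, was at 33.9, 22.99 and 30.96 RPKM in CD8 cells, against 0.564, 0.653 and 1.58 RPKM in CD4 cells (limma adjusted p = 6.01e-05). Klrk1, the activating receptor NKG2D, was at 5.02, 5.61 and 8.39 RPKM in CD8 cells, against 0.0445, 0.0172 and 0.339 RPKM in CD4 cells (limma adjusted p = 0.00142). Both chains of the NKG2A heterodimer and NKG2D were thus at 1.58 RPKM or less in CD4 cells. Cd7, a receptor of T and natural killer cells, and Cd160, which binds MHC class I and HVEM, were also higher in CD8 cells (log2 fold changes 2.22 and 3.25).

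Klrg1, an inhibitory receptor that binds cadherins, went the other way at 0, 0 and 0.0258 RPKM in CD8 cells, against 18.7, 6.87 and 8.84 RPKM in CD4 cells (limma adjusted p = 6.24e-04). It is known on terminal effector CD8 cells and on a part of regulatory T cells. The filter admitted 6 of the 17 receptors through CD8 cells alone, and members of the Klra and Klrc families are near-identical copies among which the counting could split reads. The 11 higher members were 7 without animal 3. Of natural killer and innate lymphoid markers, Klrb1c and Kit were higher in CD8 cells (0 without animal 3), and the summed level of the 8 markers was 14.2, 9.22 and 17.6 RPKM in CD8 cells, against 3.19, 0.846 and 10.7 RPKM in CD4 cells. Ncr1, a defining natural killer marker, did not pass (log2 fold change -0.17, limma adjusted p = 0.889). The part of such cells in the receptor values was not tested. In sorted bulk cells, more cells of a kind and more transcript per cell cannot be told apart.

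Of 10 transcription factors of effector and resident T cells, all tested, 5 were higher in CD8 cells (median 0.90). Tbx21, which encodes T-bet and switches on Ifng, was at 35.0, 31.3 and 43.4 RPKM in CD8 cells, against 10.3, 9.21 and 11.7 RPKM in CD4 cells (log2 fold change 1.71, SE 0.18, limma adjusted p = 7.26e-04). Its relative Eomes was at 5.09 ± 0.685 RPKM in CD8 cells and 1.59 ± 0.565 RPKM in CD4 cells (limma adjusted p = 0.0428). Ikzf3, the lymphoid factor Aiolos, Bhlhe40, a factor of cytokine production and residency, and Zeb2, a factor of terminal effectors, were the others. Without animal 3, 1 of the 5 kept its call, and Eomes, Ikzf3 and Bhlhe40 were at limma adjusted p = 0.173, 0.0537 and 0.192. Prdm1, which encodes Blimp-1, was at 11.0 RPKM in CD8 cells and 12.6 RPKM in CD4 cells (limma adjusted p = 0.793).

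Chemokines that draw in T cells, monocytes and dendritic cells were higher in CD8 cells where they passed. Of 8 T cell chemokines, 6 were tested and 5 were higher in CD8 cells (median 3.85). The other tested member was not called, and its log2 fold change was not above 0. Without animal 2, 5 members were called higher and 1 was called lower. Ccl5, which attracts T cells and monocytes, was at 711, 719 and 899 RPKM in CD8 cells, against 94.2, 93.7 and 119 RPKM in CD4 cells (log2 fold change 2.91, SE 0.12, limma adjusted p = 3.01e-06). Ccl4, an inflammatory chemokine, was at 113, 86.1 and 91.9 RPKM in CD8 cells, against 8.11, 5.01 and 6.94 RPKM in CD4 cells. Xcl1, which attracts cross-presenting dendritic cells, was at 75.9, 44.2 and 116 RPKM in CD8 cells, against 2.05, 0 and 8.91 RPKM in CD4 cells. The values of the cell types lay far apart in Ccl5, Ccl4 and Xcl1, which were named because they were called. Ccl1, the ligand of CCR8, averaged 255 ± 39.1 RPKM in CD8 cells and 8.01 ± 4.87 RPKM in CD4 cells, and Ccl3 averaged 172 ± 68.7 and 11.3 ± 7.497 RPKM in CD8 and CD4 cells (n = 3 each). edgeR on recovered reads did not call Ccl1 (adjusted p = 0.101) or Xcl1 (adjusted p = 0.346).

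**Figure D2:**
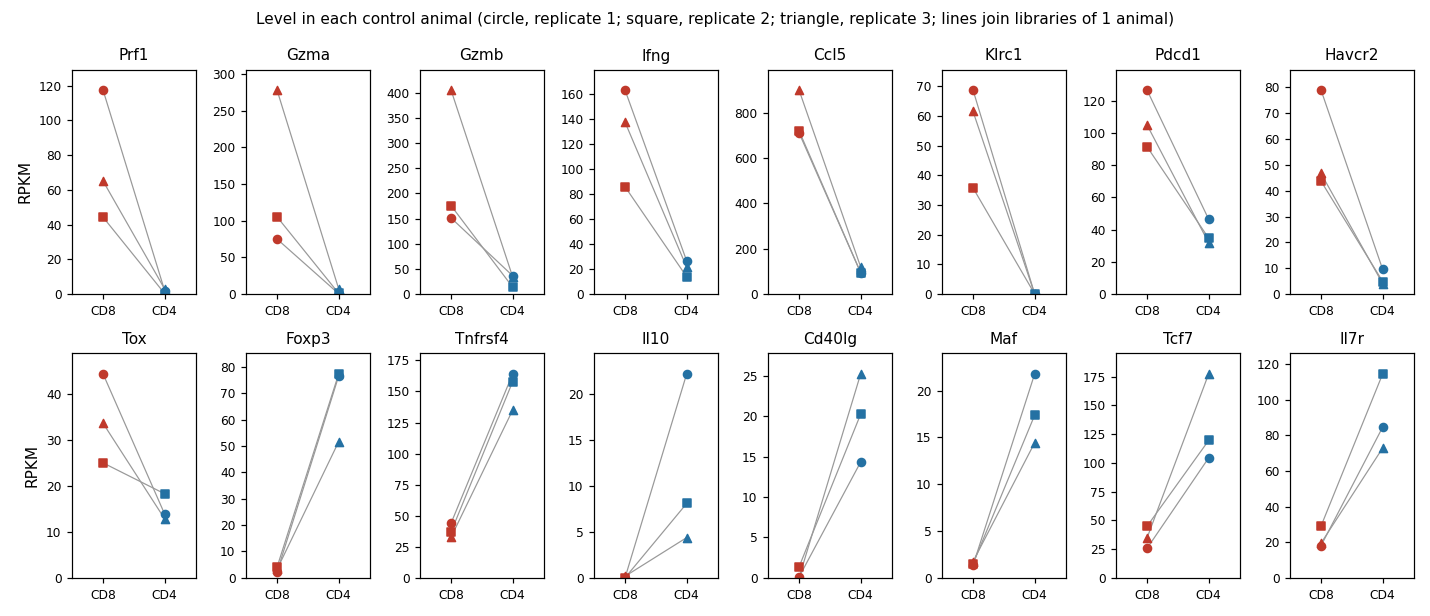
RPKM of named genes in the 3 Tet2fl/fl animals, on a linear axis from 0 with its own scale for each gene, with CD8 cells left and CD4 cells right in each panel. Lines join the libraries of 1 animal, and the lines of each gene shown slope the same way in all 3 animals, as they do for every called gene.

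Cytokines split between the cell types. Of 14 secreted cytokines tested of 22, 4 were higher in CD8 cells (Ifng, Csf2, Csf1 and Tgfb1) and 3 were lower (Il10, Areg and Ebi3), with a median log2 fold change of 0.01. Il10 was among 2 of the 14 that the filter admitted through CD4 cells alone. Ifng, the macrophage-activating interferon, was at 163, 86.0 and 138 RPKM in CD8 cells, against 26.5, 13.8 and 21.5 RPKM in CD4 cells. The differences in the 3 animals were nearly equal (log2 fold change 2.59, SE 0.15, limma adjusted p = 2.29e-05). Il10, a cytokine that dampens inflammation, had 0, 0 and 6 reads in CD8 cells and stood at 22.2, 8.11 and 4.39 RPKM in CD4 cells (limma adjusted p = 0.00262). Areg, an epidermal growth factor family ligand made by regulatory T cells in tissue repair, was at 3.89, 1.49 and 4.14 RPKM in CD8 cells, against 30.6, 18.2 and 22.5 RPKM in CD4 cells (limma adjusted p = 3.71e-04). Tnf did not pass (limma adjusted p = 0.409). Il2, Il4, Il5 and Il21 were among the 8 too low to be tested.

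**Figure D3:**
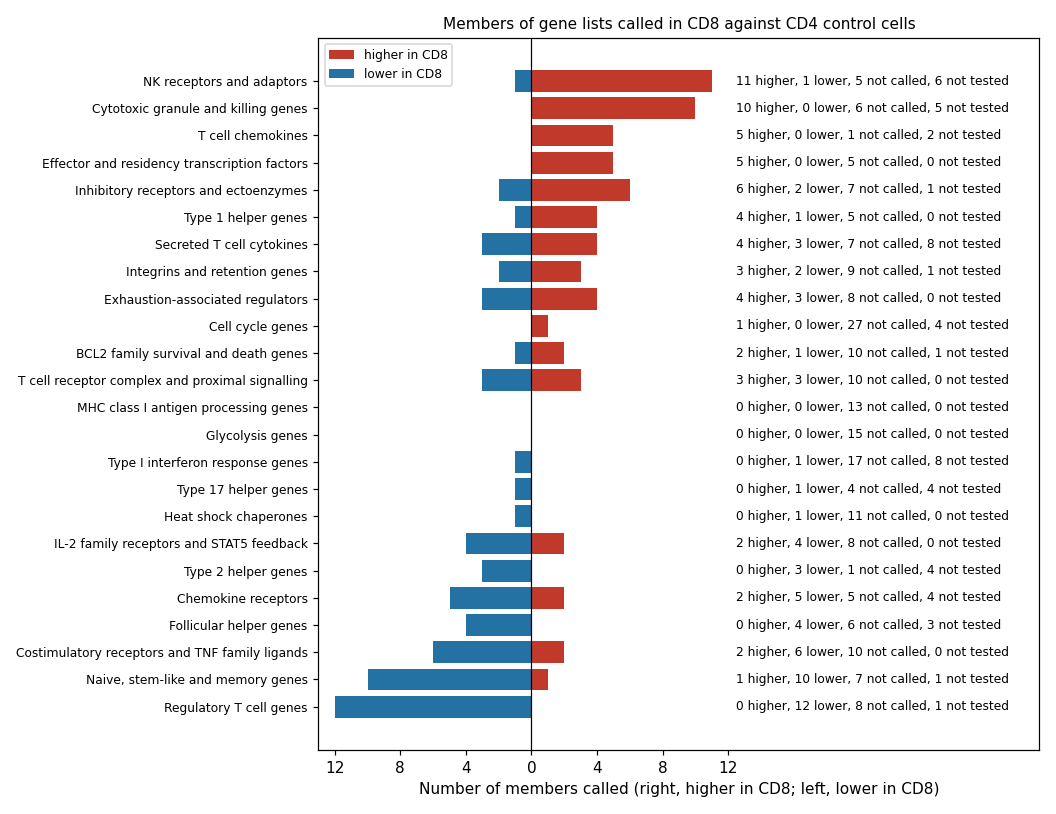
Number of members of each gene list called higher (bars to the right) or lower (bars to the left) in CD8 than in CD4 cells of the 3 Tet2fl/fl animals. The words at the right count the members not called and not tested, and regulatory T cell genes have the most lower members, 12.

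Regulatory T cell genes were the list with the most members lower in CD8 cells. Of 21 in the tables, 20 were tested and 12 were lower in CD8 cells (median -1.15, against 0.05 over all genes tested). Foxp3 (ENSMUSG00000039521, chromosome X, 7439883 to 7461484 in the tables), the factor that defines regulatory T cells, was at 2.23, 4.04 and 3.21 RPKM in CD8 cells, against 76.6, 77.4 and 51.7 RPKM in CD4 cells (log2 fold change -4.06, SE 0.23, limma adjusted p = 2.29e-05). Lrrc32, the docking receptor GARP for latent TGF-β, was at 0.277 ± 0.0566 RPKM in CD8 cells and 11.0 ± 4.999 RPKM in CD4 cells. Il1rl1, the receptor of the alarm cytokine IL-33, was at 0.899, 0.695 and 0.804 RPKM in CD8 cells, against 15.2, 11.2 and 7.80 RPKM in CD4 cells (limma adjusted p = 9.33e-04). Izumo1r, the folate receptor 4 of regulatory and exhausted-type CD4 cells, whose upstream sequence is printed above, averaged 3.88 ± 1.24 RPKM in CD8 cells and 19.8 ± 1.96 RPKM in CD4 cells. The values of the cell types did not overlap in any of these genes, as in 23.4% of all genes tested. All of them were called, which favours this trait, so it adds no separate support. The filter admitted 4 of the 20 through CD4 cells alone.

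Activation receptors that regulatory and activated T cells share showed smaller differences. Tnfrsf4, which encodes OX40, was at 43.9, 36.9 and 32.7 RPKM in CD8 cells, against 164, 158 and 135 RPKM in CD4 cells (log2 fold change -1.99, SE 0.14, limma adjusted p = 8.11e-05). Ctla4, the inhibitory receptor that competes for CD80 and CD86, was at 81.4, 71.1 and 53.7 RPKM in CD8 cells, against 187.5, 173 and 88.5 RPKM in CD4 cells (limma adjusted p = 0.00446). Il2ra, the α chain of the IL-2 receptor, averaged 19.0 ± 7.87 RPKM in CD8 cells and 42.5 ± 8.23 RPKM in CD4 cells (limma adjusted p = 0.00582). All were well above the filter in CD8 cells too. Tigit was level with CD4 cells within error (107 RPKM in CD8 cells and 101 RPKM in CD4 cells, limma adjusted p = 0.941), and Tnfrsf9 and Nrp1, which stood higher in CD8 cells by the mean, did not pass (limma adjusted p = 0.108 and 0.192).

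Type 2, type 17 and follicular helper genes were also lower in CD8 cells where they passed. Of 4 tested type 2 helper genes, Gata3, Ccr4 and Il1rl1 were lower, and the filter admitted 2 of the 4, Ccr4 and Il1rl1, through CD4 cells alone. Gata3, the factor of type 2 helper and tissue regulatory T cells, was at 17.8, 16.996 and 11.2 RPKM in CD8 cells, against 48.3, 38.5 and 31.5 RPKM in CD4 cells (limma adjusted p = 0.00262). Ccr4, a receptor of helper and regulatory T cells, was at 0.210, 0.405 and 0 RPKM in CD8 cells, against 10.7, 6.07 and 12.3 RPKM in CD4 cells (limma adjusted p = 0.00122, and 0.289 by edgeR on recovered reads). Of 5 tested type 17 helper genes, Ccr6 was lower, at 1.44 ± 0.183 RPKM in CD8 cells and 8.49 ± 0.948 RPKM in CD4 cells. Of 10 tested follicular helper genes, Maf, Icos, Il6ra and Slamf6 were lower, and Maf, a factor that drives Il10, had 1.33, 1.499 and 1.74 RPKM in CD8 cells, against 21.8, 17.4 and 14.4 RPKM in CD4 cells (limma adjusted p = 3.71e-04). The 4 lower members were 2 without animal 1 and 2 without animal 3. Without animal 3, Il6ra (limma adjusted p = 0.210) and Slamf6 (0.176) lost their calls. Among 10 type 1 helper genes, Tbx21, Ifng, Il18rap and Il12rb2 were higher in CD8 cells, and the count was 2 higher without animal 2 or animal 3. Of these 10, 1 passed the filter through CD8 cells alone.

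Inhibitory receptors linked to exhaustion split between the cell types. Of 15 tested, 6 were higher in CD8 cells (Pdcd1, Lag3, Havcr2, Cd160, Cd244a and Cd96) and 2 were lower (Ctla4 and Klrg1), with a median of 0.82. Among the 15, 1 passed the filter through CD8 cells alone and 1 through CD4 cells alone. Pdcd1, which encodes PD-1, was at 127, 91.5 and 105 RPKM in CD8 cells, against 46.4, 34.6 and 31.8 RPKM in CD4 cells (log2 fold change 1.4997, SE 0.15, limma adjusted p = 5.35e-04). Havcr2, which encodes TIM-3 and marks late exhaustion, was at 79.0, 43.7 and 46.7 RPKM in CD8 cells, against 9.53, 4.84 and 4.03 RPKM in CD4 cells (log2 fold change 3.04, SE 0.19, limma adjusted p = 3.67e-05). Lag3, a receptor of MHC class II, was at 81.7, 39.8 and 51.3 RPKM in CD8 cells, against 5.17, 2.01 and 8.33 RPKM in CD4 cells (log2 fold change 3.33, SE 0.27, limma adjusted p = 1.89e-04). CD4 cells thus held Pdcd1 at 31.8 RPKM or more, while their Havcr2 and Lag3 stood at 9.53 RPKM or less. Entpd1 and Cd101, other markers of exhausted CD8 cells, did not pass (limma adjusted p = 0.246 and 0.105).

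Of 15 exhaustion-associated regulators, all tested, 4 were higher in CD8 cells (Tox, Nr4a2, Eomes and Rbpj) and 3 were lower (Nr4a1, Ikzf2 and Maf). The 4 higher members were 2 without animal 1 and 2 without animal 3, with Tox and Eomes lost both times. Tox was at 44.5, 25.1 and 33.7 RPKM in CD8 cells, against 13.9, 18.3 and 12.8 RPKM in CD4 cells (log2 fold change 1.12, SE 0.24, limma adjusted p = 0.0271, and 0.182 without animal 3). Its relative Tox2 did not pass (10.3 RPKM in CD8 cells and 8.14 RPKM in CD4 cells, limma adjusted p = 0.556). The nuclear receptors induced by antigen receptor signals split. Nr4a2 was at 78.7, 67.8 and 80.4 RPKM in CD8 cells, against 17.9, 19.4 and 9.21 RPKM in CD4 cells (log2 fold change 2.28, SE 0.24, limma adjusted p = 6.60e-04). Nr4a1, known as Nur77, was at 100, 94.1 and 80.8 RPKM in CD8 cells, against 212, 203 and 169 RPKM in CD4 cells (log2 fold change -1.08, SE 0.13, limma adjusted p = 0.00135). Nr4a3 did not pass (limma adjusted p = 0.465). Rbpj, the DNA-binding partner of Notch, was at 56.7 ± 11.96 RPKM in CD8 cells and 18.5 ± 7.74 RPKM in CD4 cells (limma adjusted p = 0.00180).

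Naive, stem-like and memory genes were mostly lower in CD8 cells. Of 18 tested of 19, 10 were lower and 1 was higher, Ly6c2, which shares sequence with Ly6c1 (median -1.27). Tcf7 (ENSMUSG00000000782, chromosome 11, 52143198 to 52174158 in the tables), which encodes TCF1, was at 25.6, 44.8 and 34.6 RPKM in CD8 cells, against 104, 120 and 177 RPKM in CD4 cells (log2 fold change -1.90, SE 0.19, limma adjusted p = 5.38e-04). Il7r, through which T cells receive the survival signal of IL-7, was at 18.1, 29.1 and 19.5 RPKM in CD8 cells, against 84.7, 115 and 72.9 RPKM in CD4 cells (log2 fold change -1.99, SE 0.16, limma adjusted p = 1.59e-04). S1pr1, the receptor by which T cells leave tissue, was at 5.18, 7.76 and 5.59 RPKM in CD8 cells, against 24.5, 42.6 and 34.1 RPKM in CD4 cells (limma adjusted p = 2.96e-04). The transcription factor Klf2, which switches on S1pr1, was at 24.6, 67.4 and 44.1 RPKM in CD8 cells, against 86.4, 154 and 161 RPKM in CD4 cells (limma adjusted p = 7.94e-04). No CD8 value reached a CD4 value in any of these genes. All of them were called, which favours this trait, and values did not overlap in 23.4% of all genes tested. Lef1, Klf3, Satb1, Slamf6 and Il6ra were among the other lower members, whereas Ccr7 (25.0 RPKM in CD8 cells and 26.5 RPKM in CD4 cells) and Bcl2 (20.7 and 16.9 RPKM in CD8 and CD4 cells) did not pass. Without animal 3, 5 members were lower, and Ly6c2 lost its call whichever animal was left out.

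Receptors for position in tissue followed both directions. Of 12 tested chemokine receptors, 2 were higher in CD8 cells and 5 were lower. Ccr4, 1 of the 12, passed the filter through CD4 cells alone. Cxcr6, a receptor of resident T cells in liver, was at 77.9, 55.2 and 79.1 RPKM in CD8 cells, against 11.0, 4.97 and 8.10 RPKM in CD4 cells (log2 fold change 3.03, SE 0.19, limma adjusted p = 3.67e-05). Cx3cr1, the fractalkine receptor, was at 24.1, 12.2 and 14.2 RPKM in CD8 cells, against 3.33, 1.09 and 1.02 RPKM in CD4 cells (limma adjusted p = 3.74e-04). Cxcr4, the receptor of CXCL12, was at 18.3, 20.7 and 12.1 RPKM in CD8 cells, against 58.8, 55.8 and 49.3 RPKM in CD4 cells (limma adjusted p = 8.44e-04). Among 14 tested integrin and retention genes, Itga1, Itgax and Itgb2 were higher in CD8 cells and Itgb7 and Cd69 were lower. Only Itga1 passed the filter through CD8 cells alone. Itga1, the collagen receptor chain CD49a of resident cells, was at 7.12 ± 1.36 RPKM in CD8 cells and 0.564 ± 0.112 RPKM in CD4 cells (limma adjusted p = 0.00234). Itgb2, Itgb7 and Cd69 lost their calls without animal 3 (limma adjusted p = 0.0860, 0.0508 and 0.107), and 1 of the 5 members kept its call.

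Costimulation and antigen receptor genes were called in both directions. Of 18 costimulatory receptors and ligands, Cd226 and Tnfsf10 were higher in CD8 cells and 6 were lower, among them Cd2, the receptor of CD48, at 82.6 ± 5.596 RPKM in CD8 cells and 209 ± 24.8 RPKM in CD4 cells (limma adjusted p = 5.38e-04). Another of the 6, Tnfrsf25, passed the filter through CD4 cells alone. Of 16 genes of the antigen receptor complex and its proximal signalling, Cd3e, Zap70 and Ptpn6 were higher in CD8 cells and Cd5, Cd6 and Trat1 were lower. Among the 16, 1 passed the filter through CD4 cells alone. Without animal 3 the counts were 1 higher and 2 lower, and Trat1 lost its call (limma adjusted p = 0.0647). Cd5, a damper of receptor signalling, was at 10.5, 7.14 and 13.8 RPKM in CD8 cells, against 44.4, 50.3 and 45.1 RPKM in CD4 cells (log2 fold change -2.09, SE 0.22, limma adjusted p = 7.96e-04). Ptpn6, the phosphatase SHP-1 that also restrains the receptor, stood the other way at 79.0, 49.6 and 84.7 RPKM in CD8 cells, against 31.5, 21.3 and 39.6 RPKM in CD4 cells (limma adjusted p = 0.00225). Trgc2, a constant gene of the γ chain of γδ T cell receptors, was at 19.1, 15.3 and 27.0 RPKM in CD8 cells, against 0.983, 0.193 and 2.27 RPKM in CD4 cells (limma adjusted p = 1.60e-04). Trdc, the δ constant gene, stood at 0.353, 0.179 and 1.42 RPKM in CD8 cells and 0.0254, 0.402 and 0.129 RPKM in CD4 cells. The summed level of 7 γδ T cell genes was 21.3, 18.1 and 35.2 RPKM in CD8 cells, against 2.30, 0.862 and 4.78 RPKM in CD4 cells. The part of γδ T cells in these values was not tested.

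Cytokine receptor and signal feedback genes of the IL-2 family followed the same split. Of 14 tested, Il2rb and Il21r were higher in CD8 cells and Il2ra, Il7r, Socs3 and Pim1 were lower. Socs3, a feedback inhibitor of cytokine signals, was at 23.6, 39.9 and 19.2 RPKM in CD8 cells, against 76.5, 99.04 and 94.7 RPKM in CD4 cells (log2 fold change -1.73, SE 0.20, limma adjusted p = 0.00115). Pim1, a kinase induced by STAT5, averaged 45.0 ± 8.28 RPKM in CD8 cells and 104 ± 24.1 RPKM in CD4 cells (limma adjusted p = 0.00262). Without animal 3, neither Il2rb nor Il21r was called and 3 members were lower.

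Genes of general cell programmes were tested next. Of 28 tested cell cycle genes, 27 had a log2 fold change above 0 (median 0.52), but Cdc20, an activator of the anaphase complex, was the 1 called (6.74 ± 2.44 RPKM in CD8 cells and 1.16 ± 0.810 RPKM in CD4 cells, limma adjusted p = 0.0123, and 0.112 without animal 3). On recovered reads edgeR and DESeq2 each called 6 of them higher. Limma called 0 of 15 glycolysis genes (7 at an unadjusted p under 0.05, with 2 called by edgeR and 3 by DESeq2), among which Gapdh differed by 0.49 on the log2 scale (limma adjusted p = 0.0619). It called 0 of 13 MHC class I antigen processing genes (1 at an unadjusted p under 0.05, and 0 by edgeR or DESeq2). Of 12 heat shock chaperones Dnajb1 was lower, and of 13 tested BCL2 family genes Bcl2a1d and the death gene Bcl2l11 were higher and Mcl1 was lower in CD8 cells. The 12 heat shock chaperones took 2.96, 2.83 and 2.26% of summed RPKM in CD8 cells, against 3.44, 3.42 and 2.30% in CD4 cells. Dnajb1, Bcl2a1d, Bcl2l11 and Mcl1 all lost their calls without animal 3 (limma adjusted p = 0.0757, 0.0762, 0.0769 and 0.136).

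Outside the lists, 479 genes were called, and the 10 of largest change in each direction without overlap are named, apart from pseudogenes, gene models with no name and segments of receptor or immunoglobulin genes (Trgv2, a receptor segment, changed more than any of them). Higher in CD8 cells were Nrgn, a calmodulin-binding protein known from neurons, Nrn1, a glycosylphosphatidylinositol-anchored protein, Sema6d, a semaphorin, Adgrg1 and Adgrg5, adhesion receptors of cytotoxic lymphocytes, Plek, Car2, Cib2, Ppp2r2c and Mrc2. Nrgn was at 126, 56.8 and 59.6 RPKM in CD8 cells, against 5.93, 0.772 and 3.35 RPKM in CD4 cells (log2 fold change 4.34, SE 0.25, limma adjusted p = 2.61e-05). Sema6d was at 37.3, 24.2 and 28.6 RPKM in CD8 cells, against 1.88, 0.932 and 1.41 RPKM in CD4 cells (limma adjusted p = 3.67e-05). Adgrg1 was at 18.5 ± 2.97 RPKM in CD8 cells and 0.587 ± 0.450 RPKM in CD4 cells, and of these 10 edgeR on recovered reads called 3 (Nrgn, Cib2 and Sema6d).

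Lower in CD8 cells were Ecm1, Iigp1, Ass1, Igfbp4, Pde2a, Ly6a, Dst, Plcb4, Tiam1 and Bmp7. Ecm1, a secreted protein known in helper T cell exit from lymph nodes, was at 1.39, 0.464 and 0.112 RPKM in CD8 cells, against 25.9, 28.2 and 19.8 RPKM in CD4 cells (log2 fold change -4.01, SE 0.28, limma adjusted p = 8.11e-05). Ass1, the enzyme that rebuilds arginine from citrulline, was at 10.5, 12.99 and 15.9 RPKM in CD8 cells, against 77.8, 87.2 and 73.9 RPKM in CD4 cells (log2 fold change -2.52, SE 0.18, limma adjusted p = 9.29e-05). Ass1 therefore differed with little spread in either cell type. Ly6a, the surface protein Sca-1, and Plcb4, a phospholipase, lost their calls without animal 3 (limma adjusted p = 0.0546 and 0.0664), and edgeR on recovered reads did not call Iigp1 (adjusted p = 0.0779) or Pde2a (adjusted p = 0.658).

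Markers of other cells were present in both sorts. The summed level of 14 macrophage markers was 38.1, 17.4 and 17.2 RPKM in CD8 cells, against 77.4, 5.79 and 92.8 RPKM in CD4 cells, and limma called 0 of the 7 tested (0 at an unadjusted p under 0.05, with 1 called by edgeR and 2 by DESeq2). That of 11 B cell and plasma cell markers was 7.16, 62.6 and 12.3 RPKM in CD8 cells, against 153.9, 38.5 and 199.9 RPKM in CD4 cells, with Ighm, the IgM heavy chain, called lower. That of 10 endothelial and fibroblast markers was 5.95, 5.41 and 5.38 RPKM in CD8 cells, against 25.8, 21.5 and 22.5 RPKM in CD4 cells, with Pecam1 and Clec4g called lower (0 members without animal 2). Only through CD4 cells did 2 of the 4 tested endothelial and fibroblast markers pass the filter. The sums of B cell markers overlapped between the cell types and those of endothelial markers did not. MHC class II genes, which mark antigen-presenting cells, summed to 109.8, 61.3 and 396 RPKM in CD8 cells, against 149, 89.3 and 204.5 RPKM in CD4 cells, and limma called 0 of the 6 tested (0 at an unadjusted p under 0.05, and 0 by edgeR or DESeq2). Of the hepatocyte markers Trf was lower, of the dendritic cell markers Itgax was higher and Siglech lower, and of the intestinal tumour markers Cdh1 was higher in CD8 cells. Without animal 3 none of these 4 was called, and without animal 2 limma called 3 macrophage markers lower. Marco, Dcn, Tat, Krt20, Il5ra, Ly6g and Camp were at 0 in all 6 libraries. The part of such cells in the called genes was not tested.

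The last question was whether the CD8 to CD4 difference of Tet2fl/fl mice was itself different where Tet2 was deleted. In 1 fit of 16 libraries of 8 animals, 1 of 10846 genes tested (0.00922%) was called for Tet2fl/fl minus Vav1CreTet2KO (1050 at an unadjusted p under 0.05), while limma called 0 for Tet2fl/fl minus Cd4CreTet2KO (452 at an unadjusted p under 0.05). edgeR on recovered reads called 56 and 26, and DESeq2 called 216 and 69. The 1 gene was Penk (ENSMUSG00000045573, chromosome 4, 4133531 to 4138819 in the tables), which encodes the enkephalin precursor and is known in regulatory and activated T cells. Penk was at 271, 197 and 121 RPKM in CD8 Tet2fl/fl cells, against 64.8, 28.4 and 30.5 RPKM in CD4 Tet2fl/fl cells (log2 fold change 2.25, SE 0.18, limma adjusted p = 1.65e-04). It was at 5.63, 34.9 and 0.748 RPKM in CD8 Vav1CreTet2KO cells, against 53.3, 101 and 10.4 RPKM in CD4 Vav1CreTet2KO cells. The order of the cell types was reversed in each of these 3 animals, and the differences differed by 4.67 on the log2 scale (SE 0.45, limma adjusted p = 0.00960). In both Cd4CreTet2KO animals Penk was also lower in CD8 than in CD4 cells, at 37.4 and 53.4 RPKM in CD8 cells, against 103 and 87.1 RPKM in CD4 cells, but the test of that difference did not pass (3.31, limma adjusted p = 0.143). Without any single Tet2fl/fl animal the Penk call against Vav1CreTet2KO was lost (limma adjusted p = 0.103, 0.0634 and 0.0852 without animals 1, 2 and 3).

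The CD8 to CD4 differences of the genes called in Tet2fl/fl mice can be read in the knockout mice, which share no library with them. Knockout libraries were kept out of the main fit because some were judged shallow or to hold myeloid transcripts. The CD4 library of Vav1CreTet2KO animal 1 held 707866 reads, with 7761 genes above 0, and enters all Vav1CreTet2KO values given here. The part of library depth and of myeloid transcripts in the knockout values was not tested. Of the 596 genes, 442 (74.2%) had the same sign in the mean of 3 Vav1CreTet2KO animals, against 55.6% of all tested genes. In the mean of 2 Cd4CreTet2KO animals 465 (78.0%) had it, against 56.3% of all tested genes. Fewer had it in every animal, 230 (38.6%) in Vav1CreTet2KO, against 15.9% of all tested genes, and 398 (66.8%) in Cd4CreTet2KO, against 36.5%. The median size of their difference was 1.44 in Tet2fl/fl, where they were called. Signed as in Tet2fl/fl, the median was 0.468 in Vav1CreTet2KO and 0.529 in Cd4CreTet2KO. Killing genes had a median difference of 1.49 in Tet2fl/fl, 1.46 in Vav1CreTet2KO and 1.15 in Cd4CreTet2KO. Regulatory T cell genes had medians of -1.15, -1.63 and -2.40 in the same order. The median of naive, stem-like and memory genes was -1.27 in Tet2fl/fl, -0.17 in Vav1CreTet2KO and 0.37 in Cd4CreTet2KO, and that of inhibitory receptors was 0.82, -0.07 and 0.08. Over all tested genes the median was 0.05, 0.19 and -0.09, and no difference between these list medians was tested.

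By gene, the difference of Tcf7 was -1.98, -1.39 and -2.32 on the log2 scale in the 3 Tet2fl/fl animals, -0.11, 0.41 and -0.48 in Vav1CreTet2KO animals and 0.61 and 0.10 in Cd4CreTet2KO animals. For Il7r it was -2.17, -1.94 and -1.85 in Tet2fl/fl, 0.20, 0.94 and -0.07 in Vav1CreTet2KO and -0.80 and -0.66 in Cd4CreTet2KO. Neither gene passed the test of Tet2fl/fl minus Vav1CreTet2KO (limma adjusted p = 0.182 for Tcf7 and 0.0776 for Il7r). Foxp3 was lower in CD8 cells of every animal, at -4.59, -3.96 and -3.65 in Tet2fl/fl, -1.95, -4.91 and -3.83 in Vav1CreTet2KO and -4.41 and -4.56 in Cd4CreTet2KO. Its difference did not pass either interaction test (limma adjusted p = 0.811 against Vav1CreTet2KO and 1.00 against Cd4CreTet2KO). The smallest Foxp3 difference was in the Vav1CreTet2KO animal whose CD4 library held 707866 reads, the shallowest of the 16.

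**Figure D4:**
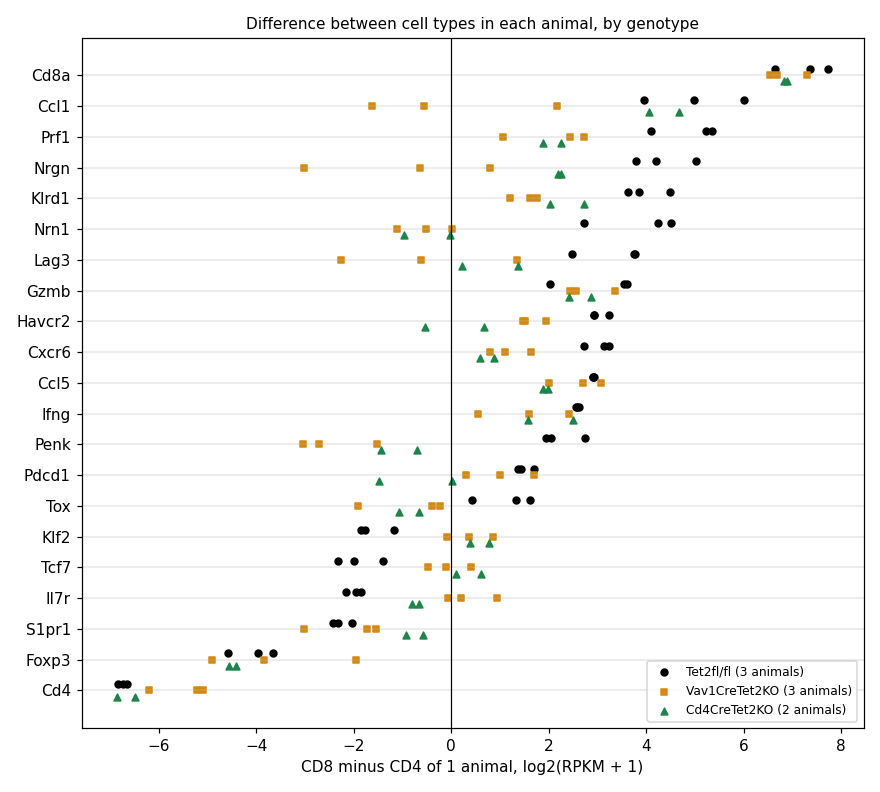
CD8 minus CD4 difference in log2(RPKM + 1) of named genes in each animal, by genotype (3 Tet2fl/fl, 3 Vav1CreTet2KO and 2 Cd4CreTet2KO animals). Each point is 1 animal and the line at 0 marks equal levels in CD8 and CD4 cells, and Penk lies above it in every Tet2fl/fl animal and below it in every knockout animal.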

How the data were processed

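Total RNA of sorted T cells was sequenced in 19 libraries, 16 of which were read here. Each cell type has a deposited table of 25639 genes. The CD4 table holds counts of reads per gene and RPKM, per the file headers, and the CD8 table was read for RPKM, which the authors computed for each library, per the file headers. The submitters' processing notes name GRCm38 and mm10, while 551 of 25582 matched genes have the tables' coordinates in the GRCm38 annotation, so the coordinates' build, like the aligner, was not given in the sources used here. A further 22 per-sample columns were not used.

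Gene lengths implied by the CD4 counts and RPKM turned all 105285 CD8 values above 0 into whole reads within 0.01. Low counts were mostly even (13.2 to 30.7% odd) in every library but the CD8 library of Vav1CreTet2KO animal 1 (50.7% odd). A fragment may thus count as a pair of reads in the others. That library entered the interaction counts of edgeR and DESeq2. Differences of log2(RPKM + 1) were fitted with limma 3.58.1 in R 4.3.3 with the animal as a block, on genes at 1 RPKM in at least 3 libraries (2 with an animal left out), with Benjamini-Hochberg adjustment over all of them. The pairing comes from the animal number in the labels. Deviations of libraries from 1 animal correlated at 0.101, 0.0834 and 0.0186, against -0.0888 to 0.00894 for libraries of different animals. Each deviation was taken from the mean of its cell type, so positive values within animals push down those between animals. Part of this contrast is therefore built in. Interactions used all 16 paired libraries. edgeR 4.0.16 and DESeq2 1.42.0 were run on recovered reads after a filter of 10 reads (15 in total). The fits were tested on simulated data.

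The comparison and the gene lists were chosen with earlier results of these data known. Named genes are a set of lineage and function genes, up to 4 called members of each list by p, and the 10 largest changes without overlap outside the lists in each direction, apart from pseudogenes, gene models with no name and segments of receptor or immunoglobulin genes. Other genes given with values, such as Klrk1, Fasl, Lrrc32 and Ctla4, were chosen after their values were seen. Alternatives were other pseudocounts, filters, scalings and count tests, no block, all libraries in 1 fit and each animal left out. Genes of near-identical families (Klra, Klrc, Ly6c, Tgtp) may share reads. Some genes are not reported here.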

Additional observations from a re-analysis of the deposited data

Results flagged for a closer look

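Penk stood out by the test of the difference itself. Its CD8 minus CD4 difference was 2.05, 2.75 and 1.95 in log2(RPKM + 1) in the 3 Tet2fl/fl animals, against -3.03, -1.51 and -2.70 in the 3 Vav1CreTet2KO animals. The differences of the genotypes were 4.67 apart (SE 0.45, limma adjusted p = 0.00960). Against the 2 Cd4CreTet2KO animals, at -1.43 and -0.70, they were 3.31 apart (SE 0.50, limma adjusted p = 0.143). The values without each animal in turn ran over 4.36 to 5.12, and the adjusted p ran over 1.23e-17 to 0.376 across all alternatives.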

How the results depend on the processing

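The 596 genes called in Tet2fl/fl mice were 43 with no filter on low values, 933 with edgeR, 926 with edgeR and RLE factors, 1408 with DESeq2 and 215 with all 16 libraries in 1 fit. The share of higher calls was 52.9%, against 74.4% with no filter. Without 1 animal the count was 200 to 488. The samples are paired by animal, and with no replicate block the count was 451, of which 429 were shared. Of the 97 named genes, none changed direction under any alternative run, but most were named because they were called in these same libraries. Calls were lost for 61 of them with no filter and 26 with all 16 libraries in 1 fit. Without animal 3, 22 lost their call, and with edgeR 17 did. For Tet2fl/fl minus Vav1CreTet2KO, the 1 call was 0 at a pseudocount of 0.1, 0 with no filter, 0 with no replicate block, 4 at a mean of at least 5 RPKM, 56 with edgeR, 70 with RLE factors and 216 with DESeq2. Without 1 animal it was 0 to 22, the 22 without Vav1CreTet2KO animal 1. For Tet2fl/fl minus Cd4CreTet2KO, the 0 calls were 2 with no filter, 26 with edgeR, 30 with RLE factors and 69 with DESeq2, and 0 without any 1 animal. The median interaction of all genes moved from 0.14 to 0.02 with TMM factors against Cd4CreTet2KO, and from -0.16 to -0.01 with DESeq2 against Vav1CreTet2KO. The cause of these shifts was not tested. With 3 animals, genes near the threshold depend on single libraries.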

Other observations

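Further gene families were read after the values of these data were seen, so their counts are descriptions with no test of the family. Over all genes tested, 3.29% were higher in CD8 cells and 2.94% were lower. Of 17 tested GTPases induced by interferon γ, which act in defence inside cells, 9 were lower in CD8 cells and 0 were higher, with a median log2 fold change of -0.98 against 0.05 over all genes. They were Iigp1, Igtp, Gbp3, Tgtp1, Tgtp2, Irgm2, Gvin1, Gbp6 and Irgm1. Both chains of the interferon γ receptor were also lower in CD8 cells. Ifngr1 was at 96.0, 90.3 and 80.7 RPKM in CD8 cells, against 247, 244 and 166 RPKM in CD4 cells (log2 fold change -1.27, limma adjusted p = 8.99e-04). Ifngr2 differed by -1.99 on the log2 scale (limma adjusted p = 0.0171). CD8 cells thus held more Ifng and less of its receptor than CD4 cells of the same tumours.

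Of 8 tested AP-1 genes, transcription factors induced on activation, 4 were lower in CD8 cells (Fos, Jun, Junb and Maff). Fos was at 125, 159 and 112 RPKM in CD8 cells, against 267, 287 and 223 RPKM in CD4 cells (log2 fold change -0.97). Of 8 feedback genes of NF-κB signalling, 6 were lower (Nfkbid, Nfkbia, Tnfaip3, Birc3, Nfkbiz and Zc3h12a). Trgv2, a variable segment of the T cell receptor γ chain, was at 38.8, 35.7 and 46.8 RPKM in CD8 cells and listed at 0 in all 3 CD4 libraries (limma adjusted p = 7.36e-06). Of 37 tested proteasome subunits, 3 were higher in CD8 cells (Psmd2, Psma6 and Psmc4) and 0 were lower. The 3 of 37 are a larger share than the 3.29% of all genes tested that were higher, but the count is small. The shares were not compared by a test. Of the 37 subunits, 7 had a log2 fold change below 0 (median 0.27).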
